A study of Homo sapiens with 10 samples.

Results

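Introns of 120 nt or less were examined in A549 cells, an established line of human lung adenocarcinoma, after drugs that act on RNA polymerase II. An intron was included when both of its splice sites matched an intron of GENCODE release 44 on the GRCh37 genome exactly, when it was no longer than 120 nt, and when at least 20 split reads, that is, reads joining its 2 flanking exons, were listed for it over both DMSO libraries together. This rule kept 5676 introns, 5.16% of the 110068 annotated introns listed in at least 1 library and 67.1% of the 8462 annotated introns of this length that were listed. They made up 9.12% of the introns with the same minimum of split reads, the other 56550 being longer than 120 nt. Below the minimum, 75 introns of this length had 18 or 19 split reads in DMSO, and 67 of the introns kept had 20 or 21. At the limit of length, 77 introns measured 120 nt, and 75 introns with the same minimum measured 121 nt.

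Poly(A)+ RNA was sequenced as 75-nt reads in 5 groups of 2 libraries: A549 cells given DMSO, cells given α-amanitin for 24 h at 1 or at 2 μg/mL, and cells given DRB at 10 or at 25 μg/mL. How long DRB or DMSO was applied was not stated in any source used. α-Amanitin binds RNA polymerase II and slows its movement along the gene. DRB inhibits kinases, CDK9 among them, by which the paused enzyme is released into elongation. The cells are 1 line without genetic change, the drugs act on the transcription of all genes read by this enzyme, and nothing states that the libraries of a group came from separate cultures, so that each p-value measures the spread between these libraries only. Of 12 epithelial and A549 markers, 8 had split reads, among them KRT8, KRT18 and AKR1B10, and KRT19, EPCAM, CDH1 and ALDH3A1 had none listed. None of the 5 leukocyte and 4 endothelial markers was listed, and of 5 fibroblast markers only COL1A1 was, with a sum of 0 to 677 split reads per library against 15707 to 35841 for the epithelial list.

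Very short introns are recognised as a unit, the splice sites at either end of the intron being paired with each other across it, whereas in long introns the sites are first paired across the exon. They are frequent in GC-rich, gene-dense regions, where runs of G inside the intron serve as splicing enhancers. When such an intron is left in the mRNA, the RNA may stay in the nucleus or be degraded after export, and some introns are kept as a part of a coding exon.

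The introns measured 56 to 120 nt, with a median of 92 nt. They belonged to 2418 genes when the 275 introns assigned to more than 1 gene were set aside, and 1305 of these genes held 1 such intron and 249 held at least 5. The collagen gene COL7A1 with 28, the laminin gene LAMA5 with 27, the filamin gene FLNA with 26, the cleavage factor gene CPSF1 with 25 and the ion channel gene PIEZO1 with 21 held the most. Introns of 1 gene share its transcript and are not independent of each other. A further 163 introns shared their whole sequence with another, and 88 of these had the same number of split reads as their copy in all 10 libraries, so that reads of the copies could not be told apart.

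Sequences are shown for the shortest introns, for introns most often left unspliced, for introns whose unspliced share passed the test after DRB, and for introns that begin with GC, each read from GRCh37 5′ to 3′ on the transcribed strand. Capitals mark the first 6 bases, at the donor site, and the last 3, at the acceptor site.
HNRNPH1, 56 nt, chr5:179044934-179044989, minus strand: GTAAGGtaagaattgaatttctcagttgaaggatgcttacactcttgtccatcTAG
NPIPA1, 66 nt, chr16:15020448-15020513, plus strand: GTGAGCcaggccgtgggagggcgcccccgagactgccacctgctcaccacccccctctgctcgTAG
SNHG5, 85 nt, chr6:86387587-86387671, minus strand: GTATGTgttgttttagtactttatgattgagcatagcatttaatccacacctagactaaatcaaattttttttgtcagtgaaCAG
NOL7, 87 nt, chr6:13615857-13615943, plus strand: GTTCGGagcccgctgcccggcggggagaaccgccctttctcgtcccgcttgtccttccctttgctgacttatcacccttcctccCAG
GIPC1, 116 nt, chr19:14589380-14589495, minus strand: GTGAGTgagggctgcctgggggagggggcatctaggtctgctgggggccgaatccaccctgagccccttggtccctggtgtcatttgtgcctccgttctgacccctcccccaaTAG
POLR2B, 81 nt, chr4:57889747-57889827, plus strand: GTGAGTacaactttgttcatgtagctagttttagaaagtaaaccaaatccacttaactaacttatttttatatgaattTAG
PCNA, 86 nt, chr20:5096009-5096094, minus strand: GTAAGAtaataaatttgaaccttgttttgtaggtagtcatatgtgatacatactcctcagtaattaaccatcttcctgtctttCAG
GNL3, 89 nt, chr3:52728120-52728208, plus strand: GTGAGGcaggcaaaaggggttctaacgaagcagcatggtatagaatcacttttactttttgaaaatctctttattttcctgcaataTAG
TIMM50, 85 nt, chr19:39976243-39976327, plus strand: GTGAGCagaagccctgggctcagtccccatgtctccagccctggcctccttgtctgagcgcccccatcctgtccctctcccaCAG
ACADVL, 76 nt, chr17:7127389-7127464, plus strand: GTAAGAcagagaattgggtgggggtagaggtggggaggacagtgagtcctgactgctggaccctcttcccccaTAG
KLHL17, 83 nt, chr1:898634-898716, plus strand: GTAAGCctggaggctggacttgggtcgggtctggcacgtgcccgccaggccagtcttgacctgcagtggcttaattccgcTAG
ATP5F1C, 111 nt, chr10:7841879-7841989, plus strand: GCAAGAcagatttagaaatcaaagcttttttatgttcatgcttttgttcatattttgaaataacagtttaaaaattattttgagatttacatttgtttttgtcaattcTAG
NDUFS8, 80 nt, chr11:67803849-67803928, plus strand: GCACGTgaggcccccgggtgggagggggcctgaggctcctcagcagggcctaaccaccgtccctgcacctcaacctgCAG

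The short introns were GC-rich and nearly all lay between coding exons. Their median GC content was 59.4% (quartiles 43.8% and 67.1%), against 42.9% (quartiles 37.6% and 51.2%) in the longer introns with the same minimum. The range within the set was wide, as the sequences of NDUFS8 (71.2% GC) and ATP5F1C (23.4% GC) show. Coding introns numbered 5504 (97.0%), with 108 in noncoding transcripts, 47 in 5′ UTRs and 17 in 3′ UTRs. By position in the canonical transcript, 2.54% of the 5275 short introns placed there were first introns, against 8.08% of 51983 longer ones. Chromosome 19 held 13.8% of the short and 5.74% of the longer introns, and chromosome 4 held 1.20% and 2.88%.

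Nearly all short introns carried the usual terminal bases. GT at the start and AG at the end stood in 5629 of them (99.2%, against 99.0% of the longer introns), GC and AG in 43 (0.758% against 0.695%), and AT and AC in 1 (0.0177% against 0.136%). This last intron, of 99 nt in NOP2, a nucleolar methyltransferase gene (chr12:6672681-6672779, minus strand), was picked out after its values had been seen. It had 78 split and 9 unspliced reads over both DMSO libraries. As first 6 bases, GTGAGT stood in 15.9% of the short and 13.4% of the longer introns, and GTAAGT, the base-paired partner of U1 snRNA, in 8.79% and 15.0%. GGG, searched on the transcribed strand with overlaps counted, was found between bases 7 and 56 in 70.2% of the short and 49.7% of the longer introns. CTGAC or CTAAC, forms of the branch point motif, stood between the last 50 and the last 15 bases in 18.3% and 10.8%. The pyrimidine content of the 20 bases before the terminal AG had the same median of 75% in both. These shares describe the letters of the introns, and no site was tested for use.

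Each library held 2899344 to 6498515 split reads over all listed introns, and 11.4% to 12.6% of those on annotated introns lay on the short ones. Unspliced reads over all listed introns numbered 1718564 to 4001236 in 9 libraries and 10641205 in DRB 25 μg/mL replicate 2. The number of short introns listed ran from 3519 (62.0%) in DRB 25 μg/mL replicate 1 to 5637 (99.3%), and 3339 were listed in all 10 libraries. The lists hold no intron with fewer than 3 split reads and no count of 1 or 2 unspliced reads, so that a 0 hides up to 2 reads at each splice site, or 4 per intron, and an intron not listed is below a minimum rather than absent.

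In the DMSO libraries the short introns that were kept were almost completely spliced. The unspliced share is used here for the sum of the reads that run across the donor or the acceptor site without a gap, divided by that sum plus 2 times the split reads. Since at least 20 split reads in these same libraries were required, the rule itself favoured introns with a low share. No unspliced read was listed in either DMSO library for 4245 of the 5676 introns (74.8%), and 713 had such reads in both. Pooled over both libraries, 303 introns reached a share of at least 10% and 26 a share of at least 50%. The median share was 0% in each of the 10 libraries. Summed over the introns listed in every library, the share was 1.61% and 1.57% in DMSO and ranged from 1.31% to 1.89% over the 10 libraries. The 63-nt intron of RPL8 alone held 25.0% of the unspliced reads of the set in DMSO, and without it the summed share ranged from 0.852% to 1.30%.

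The introns with the most split reads belonged to highly expressed genes and had low unspliced shares. The most used was an 89-nt intron of EEF1A1, which encodes the elongation factor that brings aminoacyl-tRNA to the ribosome. It had 19664 and 23833 split reads in DMSO and unspliced shares of 0.211% and 0.109%. The introns of RPLP0 (5309 and 6687 split reads), the actin gene ACTG1 (4269 and 5551), RPS16 (4499 and 4612), RPS18 (4343 and 4547) and the glycolytic gene GAPDH (3588 and 4826) followed. RPS16 had the highest share of these 6 in DMSO, with 0.695% and 0.518%, and RPLP0 the lowest, with 0.0941% and 0.0822%.

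The shortest intron, of 56 nt, was the 7th of HNRNPH1, which encodes a splicing regulator that binds runs of G. It had 291 and 327 split reads in DMSO. Its unspliced share was 4.43% and 2.97% in DMSO. With α-amanitin the lower dose gave 5.61% and 3.20%, the higher dose 5.47% and 4.42%, and with DRB the lower dose gave 12.9% and 1.60%, the higher dose 7.65% and 0.826%. Both DRB groups had 1 library above and 1 below the DMSO libraries, so no group stood apart from DMSO. The RPL8 intron came next, at 63 nt on chromosome 8, and its share lay between 83.5% and 87.0% in all 10 libraries. The other 6 of the 8 shortest were 66-nt copies on chromosome 16 in NPIPA1, PKD1P6, NPIPA9, PKD1P2, NPIPA8 and PKD1P5, each with 79 to 83 split reads in DMSO. The first 4 had the sequence printed for NPIPA1, and reads of these copies could not be assigned to 1 of them with certainty.

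Introns with a high unspliced share in DMSO nearly always overlapped an annotated exon of another transcript, where reads of a transcript that keeps the intron, or starts or ends in it, count as unspliced. Of the 303 introns at 10% or above, 251 (82.8%) overlapped an exon, against 32.7% of those below 10%. All 8 introns with the highest shares among those with at least 100 reads in DMSO were of this kind. The highest was the SNHG5 intron of 85 nt, in the host gene of small nucleolar RNAs, with 99.0% and 98.2% in DMSO and 97.5% to 99.5% in all 10 libraries. Its unspliced reads in DMSO were 1539 and 1641 at the acceptor site but 4 and 16 at the donor site, so the share came almost wholly from the acceptor site. Introns of HNRNPK (94.2% and 95.0%), RPL41 (88.0% and 84.3%) and RPS27A (71.6% and 73.5%) had no donor-side reads listed in DMSO. The RPL8 intron had reads at both sites, 2776 and 3664 at the donor and 1132 and 1413 at the acceptor, and introns of MRPL43 (88.0% and 89.9%), CDCA8 (57.6% and 82.4%) and RPL10A (68.8% and 67.9%) also had reads at both.

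**Figure D1:**
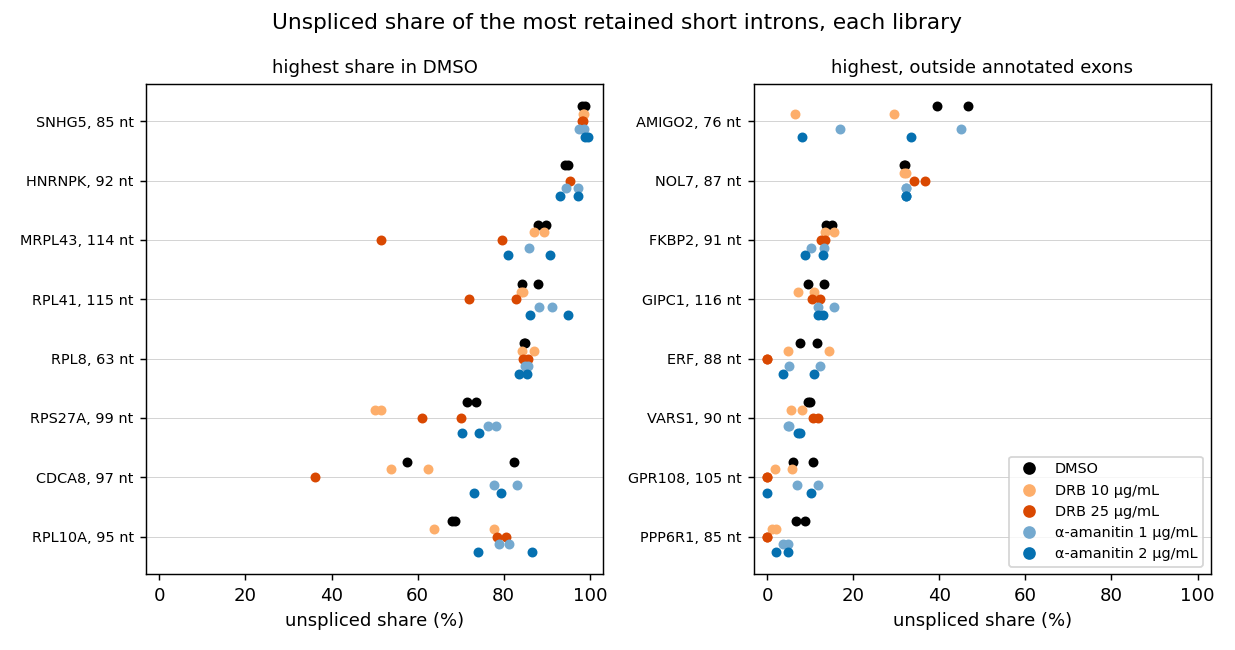
Unspliced share in percent of the 8 introns with the highest share in DMSO and of the 8 with the highest share outside annotated exons, each point being 1 of the 10 libraries in which the intron was listed, coloured by group. SNHG5 and RPL8 stay within 97.5% to 99.5% and 83.5% to 87.0% in all 10 libraries, and NOL7 within 31.8% to 36.8%.

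Outside annotated exons, 52 of 3670 introns had a share of at least 10%. The 8 with the highest shares and at least 100 reads were picked out after the values had been seen. First came the 76-nt intron of AMIGO2, a gene of a neuronal adhesion protein, with 46.6% and 39.6% in DMSO. It had reads at both sites, and its replicates differed widely after treatment, with 45.1% and 16.8% for the lower and 33.3% and 8.11% for the higher dose of α-amanitin, and 29.4% and 6.38% for the lower dose of DRB. The 87-nt first intron of NOL7, a nucleolar protein gene, was the steadiest, with 31.9% and 31.8% in DMSO and 31.8% to 36.8% over the 10 libraries. All of its unspliced reads in DMSO, 152 and 212, lay at the acceptor site, and as printed above its first 6 bases are GTTCGG. Introns of FKBP2 (15.2% and 13.6%), the scaffold protein gene GIPC1 (9.46% and 13.3%) and the valyl-tRNA synthetase gene VARS1 (9.43% and 10.1%) also had acceptor-side reads only, whereas introns of ERF, GPR108 and PPP6R1, with 6.02% to 11.6%, had reads at both. Unspliced reads at both sites in DMSO were listed for 595 of the 5676 introns, at the donor site only for 312 and at the acceptor site only for 524.

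The 4 named introns that begin with GC were well spliced. They are introns of the ATP synthase gene ATP5F1C, of TOP2A, which untangles DNA, of the proteasome activator gene PSME1, and of NDUFS8, a subunit of respiratory complex I. ATP5F1C had 241 and 281 split reads in DMSO and shares of 0.823% and 0.882%, the highest DMSO share in either library of these 4 introns being 1.06%, in TOP2A.

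Within the set the shortest introns most often had unspliced reads listed. Of the 57 introns of 56 to 70 nt, 18.6% to 66.7% had unspliced reads in a library (median over 10 libraries 51.8%). Of the 846 introns of 71 to 80 nt, 19.5% to 36.9% did (median 29.4%), and of the 931 introns of 101 to 110 nt, 12.1% to 20.7% (median 16.7%). The class of 101 to 110 nt had the lowest median within the set, and the 773 introns of 111 to 120 nt stood at 13.3% to 25.4% (median 19.1%). Introns of 56 to 70 nt and of 71 to 80 nt lay above those of 101 to 110 nt in 9 of 10 libraries. The exception was DRB 25 μg/mL replicate 1 with 18.6% and 19.5% against 20.7%, where introns of 111 to 120 nt stood at 25.4%. At 56 to 70 nt, a class that includes the copies on chromosome 16, the libraries of 25 μg/mL DRB were the lowest, with 18.6% and 22.4%, and those of 1 μg/mL α-amanitin the highest, with 62.5% and 66.7%. Introns of 121 to 240 nt stood at 18.6% to 28.3% (median 22.4%) and those over 1000 nt at 8.02% to 18.3% (median 10.5%). The share of introns lying within an annotated exon of another transcript moved with length as well, from 56.1% at 56 to 70 nt and 42.7% at 71 to 80 nt to 23.0% at 101 to 110 nt, as did the median GC content, from 71.0% and 64.1% to 57.7%. Among introns outside annotated exons, 17.1% and 14.6% of the 429 introns of 71 to 80 nt had unspliced reads in DMSO, against 7.77% and 6.80% of the 637 introns of 101 to 110 nt.

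**Figure D2:**
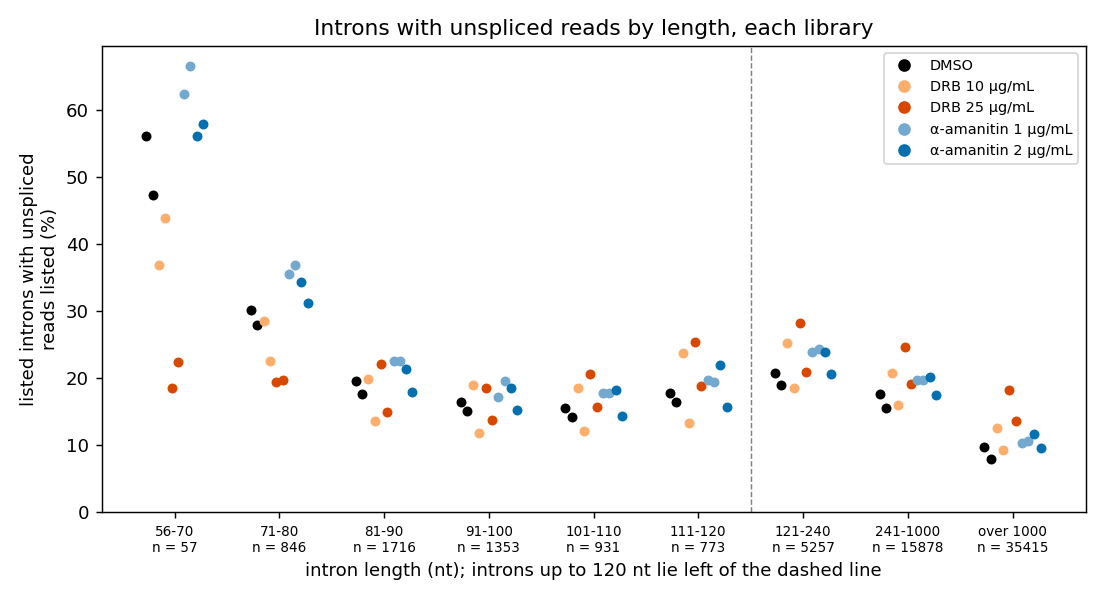
Percent of listed introns with unspliced reads by class of length in nt, with 1 point for each of the 10 libraries. Introns of 71 to 80 nt lie at 19.5% to 36.9%, above those of 101 to 110 nt in 9 libraries, and introns over 1000 nt at 8.02% to 18.3%.

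Against all longer introns with the same minimum, short introns more often had unspliced reads listed, in 9 of 10 libraries (14.6% to 23.3% of short and 11.2% to 21.3% of longer introns), and the summed share of introns listed in every library was higher in short introns in 7 of 10 (1.31% to 1.89% against 1.30% to 1.94%). Within genes, where all longer introns listed were taken with no minimum, the order was the other way when the reads of a class were summed. In each library the reads of all short and of all longer introns of a gene were summed, and genes with at least 20 reads in both classes were kept, 1115 to 2187 genes per library. The median over genes of the share in short introns minus the share in longer ones was below 0 in 10 of 10 libraries, from -0.916 to -0.369 percentage points, with a mean of -0.587 over libraries. An exact permutation test of the signs, two-sided over the 10 libraries, gave p = 0.00195, the smallest it can give. Short introns had to have at least 20 split reads in DMSO, which count in the share, and the longer ones did not. This p therefore cannot tell length from that minimum. The median over genes of the share in short introns was 0 in each library. Reads were summed over a class and counts of 1 or 2 are not listed, so that the number of introns and reads in a class can move the difference too. How far it did was not tested. In a library the share was lower in the short introns in 59.1% to 67.5% of genes and higher in 11.0% to 17.3%. The size depended on the introns and the summary used: with the DMSO minimum of 20 split reads set on them too, the mean was -0.221 points (10 of 10 libraries below 0), and with introns inside annotated exons left out as well it was -0.142 points (9 libraries below 0 and 1 at 0; exact permutation p = 0.00391). It was -0.159 points with longer introns of at most 1000 nt (8 libraries below 0), -0.182 with donor-side reads only (7 below 0), -0.285 with acceptor-side reads only (9 below 0), and -2.04 with the mean over genes. The mean over genes gave -0.553 points when the DMSO minimum was set on the longer introns too. With the median of the introns of a gene in place of their sum the difference was 0.

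No change of this difference with the drugs passed the test. The 4 α-amanitin libraries minus the 2 DMSO libraries gave -0.140 points (exact permutation p = 0.267, two-sided), and the 4 DRB libraries minus DMSO gave -0.295 points (exact permutation p = 0.133, the smallest this design allows). A median share of 0 in every library left no difference to test in the median itself.

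**Figure D3:**
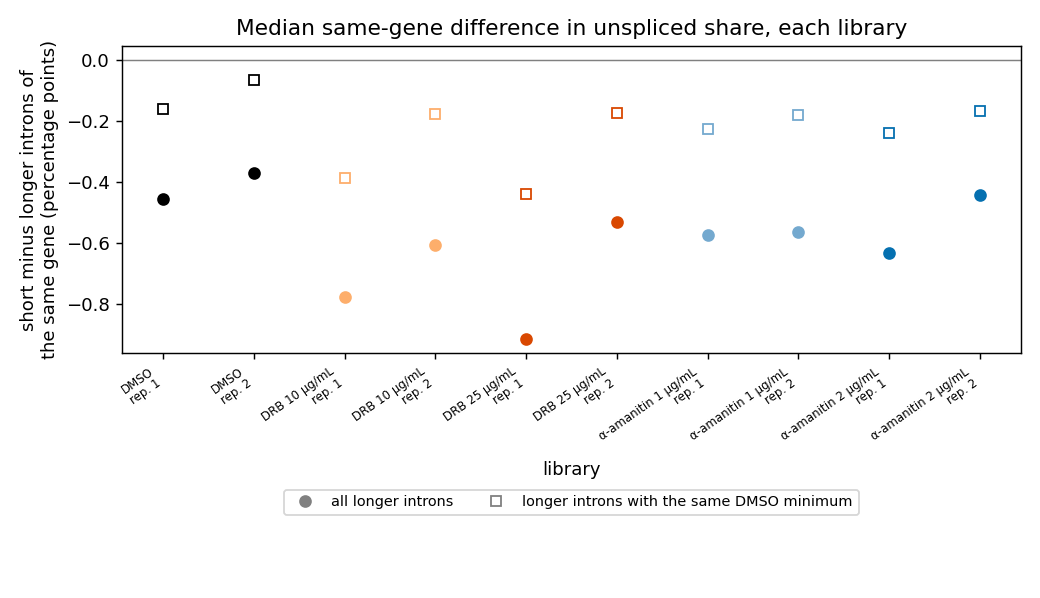
Median over genes of the unspliced share in short introns minus that in longer introns of the same gene, in percentage points, for each library, coloured by group, with all longer introns (filled circles) or those with the same DMSO minimum (open squares). All 10 circles lie below 0, between -0.916 and -0.369, and the squares between -0.438 and -0.0670.

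The unspliced share of single introns was next compared with DMSO, to ask whether short introns were left unspliced when RNA polymerase II was inhibited. A quasi-binomial test was fitted on all annotated introns with enough reads, with DMSO and both doses of a drug in 1 fit, spreads moderated by limma and p-values adjusted by Benjamini-Hochberg over all introns tested. After α-amanitin, 0 of the 1213 short introns tested passed an adjusted p of 0.05 at either dose, nor did any of all 9114 introns tested (0% in both comparisons). At an unadjusted p under 0.05 the lower dose had 100 and the higher dose 171. A second test, limma fitted to the log odds, gave 0 as well. After 10 μg/mL DRB, 0 of 843 passed by either test, with 101 at an unadjusted p under 0.05, and 0 of all 6731 introns (0%) did. In data simulated for the higher dose of each drug, with the listing minimum of 3, the quasi-binomial test found at most 38.8% of log2 changes of 2. A count of 0 therefore does not show that shares stayed the same.

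Among introns of lowest p that did not pass after α-amanitin, the one in PIDD1, a death domain protein gene, had shares of 38.5% and 22.0% in DMSO and 74.7% and 76.7% at 2 μg/mL (adjusted p = 0.219 by the limma-moderated test). In a TRPT1 intron the shares were 29.7% and 17.4% in DMSO and 0% in both libraries at 2 μg/mL, and in a DENND4B intron 29.4% and 29.0% against 0% in both. At 10 μg/mL DRB an intron of HNRNPM, a splicing repressor gene, had 39.5% and 45.9% in DMSO against 13.2% and 14.7% (log2 odds ratio -2.18, SE 0.22, adjusted p = 0.199). An intron of the splicing factor gene PRPF31 had 4.30% and 4.76% against 14.6% and 12.5% (log2 odds ratio 1.68, SE 0.45, adjusted p = 0.340). These introns were chosen for their low p, and none passed.

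After 25 μg/mL DRB, 72 of the 843 short introns passed, in 63 genes, 32 with a higher share (3.80%) and 40 with a lower share (4.74%). Over all 6731 introns tested, 11.3% passed, 7.83% with a higher and 3.48% with a lower share. The median log2 odds ratio was -0.29 in the short introns and 0.25 in all introns. The short introns had been kept for at least 20 split reads in DMSO, which count in the DMSO share, and all introns had no such minimum. How far this moved the short introns against all introns was not tested. These calls rest on a small design, with 2 libraries at this dose that held 3080765 and 10641205 unspliced reads over all introns, a difference whose part in the calls was not tested. None of the 72 passed when only DMSO and this dose were fitted, nor when any 1 of the 4 libraries was left out. The median of the short introns was -1.11 without DRB 25 μg/mL replicate 1 and 0.01 without replicate 2. In the 206 short introns with unspliced reads listed in every library, 33 passed, 14 higher and 19 lower, and of all 1929 such introns 260 did, 133 higher and 127 lower, so that there the short introns did not pass less often than all introns.

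**Figure D4:**
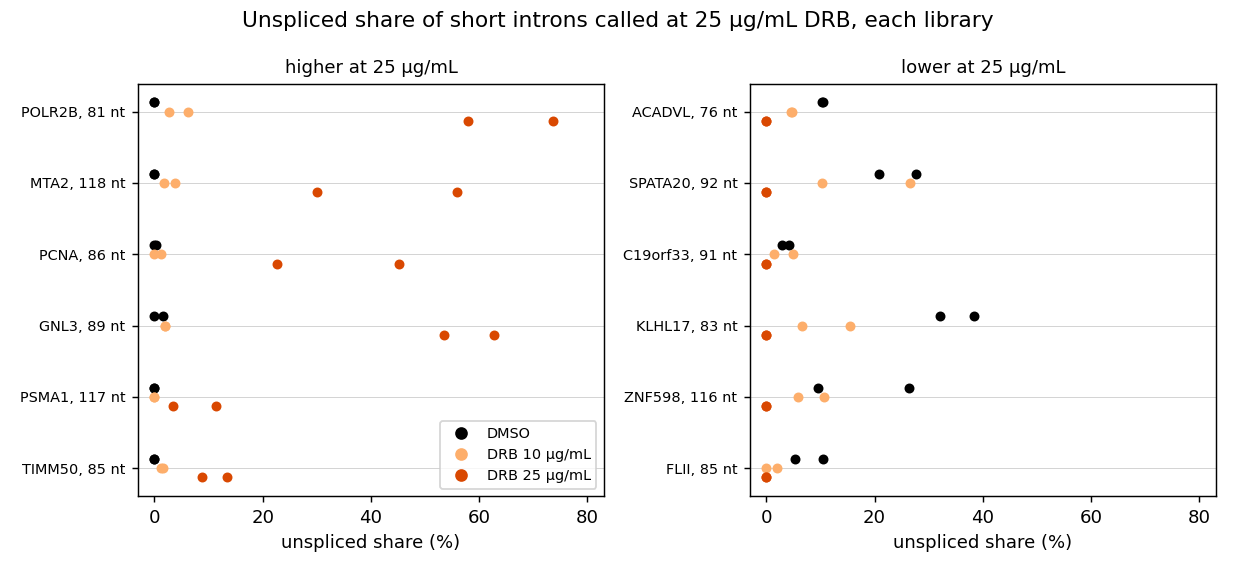
Unspliced share in percent in the 2 DMSO, the 2 DRB 10 μg/mL and the 2 DRB 25 μg/mL libraries of the 6 introns with the largest rise and the 6 with the largest fall among those that passed, 1 point per library. Introns were chosen only where the 25 μg/mL libraries did not overlap the DMSO libraries. In the 6 with a fall both 25 μg/mL libraries are listed at 0%, and in the 6 with a rise the 25 μg/mL libraries lie above both DMSO libraries, from 3.51% to 73.7%.

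The 6 introns with the largest rise at 25 μg/mL DRB were in POLR2B, MTA2, PCNA, GNL3, PSMA1 and TIMM50, and had at most 3 unspliced reads listed in a DMSO library, so that no fold is given. In the 19th intron of POLR2B, which encodes the second largest subunit of RNA polymerase II, the share was 0% in both DMSO libraries and 73.7% and 57.9% after DRB (adjusted p = 0.0123, as from the limma-moderated test in the values that follow). Its unspliced reads went from 0 and 0 to 28 and 33 and its split reads from 54 and 68 to 5 and 12, so that fewer split reads and more unspliced reads were counted side by side. In the last intron of PCNA, the sliding clamp of DNA replication, the share was 0% and 0.324% in DMSO and 45.1% and 22.6% after DRB (adjusted p = 0.0185), with split reads of 390 and 462 in DMSO and 14 and 41 after DRB. In the last intron of GNL3, a nucleolar GTPase gene, the share was 1.55% and 0% in DMSO and 53.5% and 62.7% after DRB (adjusted p = 0.0123). Introns were named here only where the DRB libraries did not overlap the DMSO libraries, so that their separation adds nothing to the test.

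Introns of MTA2, a subunit gene of a chromatin remodelling complex (0% in both DMSO libraries, 55.9% and 30.0% after DRB, adjusted p = 0.0185), of TIMM50, which imports proteins into mitochondria (0% in both, 13.3% and 8.77%, adjusted p = 0.0196), and of the proteasome gene PSMA1 (0% in both, 11.3% and 3.51%, adjusted p = 0.0289) completed the 6. TIMM50 and PSMA1 thus rose to shares far below that of POLR2B.

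The 6 introns with the largest fall were listed at 0% in both DRB 25 μg/mL libraries. An intron of ACADVL, a gene of mitochondrial fatty acid oxidation, had 10.3% and 10.4% in DMSO, from 22 and 23 unspliced reads, and none listed after DRB beside 157 and 246 split reads (adjusted p = 0.0132). An intron of KLHL17 had 38.5% and 32.1% in DMSO (adjusted p = 0.0318), from 10 and 18 unspliced reads. Introns of SPATA20 (27.6% and 20.9%), ZNF598 (9.52% and 26.3%), FLII (5.26% and 10.4%) and C19orf33 (2.92% and 4.17%) were the others, with adjusted p from 0.0327 to 0.0479. As up to 4 reads are hidden by the minimum, these zeros mark a fall below what is listed rather than a full loss. Of the 40 introns with a lower share 32 overlapped an annotated exon, of the 32 with a higher share 19, and of those tested outside chromosome Y 570 of 842.

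The split reads of the introns were compared with DMSO next, since they follow both the amount of mRNA and its splicing. The test was limma with voom weights on introns listed in every library of a fit, scaled by the trimmed mean of M values, and adjusted p-values were taken over all introns tested. The short introns had been kept for at least 20 split reads in DMSO, the baseline of this test, and all introns had no such minimum. How far this moved the counts of short introns against those of all introns was not tested. After 1 μg/mL α-amanitin, 0 of 5262 short introns passed, with 430 at an unadjusted p under 0.05, and 0.0142% of all 56365 introns did. In data simulated for 2 μg/mL α-amanitin this test found 6% to 39% of log2 changes of 1 and 73% to 90% of log2 changes of 2. The count of 0 therefore does not show that split reads stayed the same. At 2 μg/mL, 395 short introns in 216 genes passed (7.51%, against 5.45% of all introns), 222 higher (4.22%, against 2.19%) and 173 lower (3.29%, against 3.27%). After 10 μg/mL DRB, 767 of 3367 in 398 genes passed (22.8%, against 20.3% of all 30764 introns), 508 higher (15.1%, against 9.65%) and 259 lower (7.69%, against 10.6%). At 25 μg/mL it was 1660 in 874 genes (49.3%, against 49.5%), 975 higher (29.0%, against 24.6%) and 685 lower (20.3%, against 24.8%).

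The median log2 fold change of the short introns, lower dose first, was 0.04 and 0.12 for α-amanitin and 0.17 and 0.14 for DRB, whereas the median of all introns lay between -0.02 and 0.01. All 4 comparisons use the same 2 DMSO libraries. At 25 μg/mL DRB the scaling set the split of directions: scaled by total split reads, the median of all introns was -0.42 and that of the short introns -0.26, with 598 higher and 1118 lower, and the short introns lay 0.16 above all introns under both scalings. At 10 μg/mL total scaling moved the medians to 0.19 and 0.35 and gave 815 higher and 163 lower. The counts leaned on single libraries: at 2 μg/mL α-amanitin 200 introns passed without DMSO replicate 1, 162 without DMSO replicate 2 and 115 without α-amanitin replicate 1. At 10 μg/mL DRB 496 and 441 passed without DMSO replicate 1 and 2, and 369 and 397 without DRB replicate 1 and 2. The balance of directions turned in some of these: 88 were higher and 112 lower at 2 μg/mL α-amanitin without DMSO replicate 1. Leaving out DMSO replicate 2 gave 69 higher and 93 lower, and 55 were higher and 60 lower without α-amanitin replicate 1. With introns not listed counted as 0 reads, 20 were higher and 25 lower at 2 μg/mL α-amanitin, 137 were higher and 184 lower for the lower dose of DRB, and 794 were higher and 1516 lower for its higher dose, among 5665 tested.

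Short introns moved with the longer introns of their genes. The median over genes of the log2 fold change of short minus longer introns was -0.01 and 0.01 for the doses of α-amanitin and 0.01 and 0.02 for those of DRB. Both classes had the same sign in 70.0% and 81.2% of 2157 genes after α-amanitin and in 86.5% and 91.2% of 1348 genes after DRB. The short introns with more split reads were richer in GC than those with fewer: the median GC content was 66.7% against 46.4% for the higher dose of α-amanitin, 66.7% against 47.4% for the lower dose of DRB and 63.8% against 51.6% for its higher dose. The same order was found over all introns, with 54.8% against 42.4%, 53.6% against 42.5% and 50.6% against 42.3%. The part of GC content in the changes was not tested.

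At 2 μg/mL α-amanitin introns of POLR2A, DLGAP5 and NXF1 were among those with the largest rise, and their order changed when a DMSO library was left out. POLR2A encodes the largest subunit of RNA polymerase II, which α-amanitin binds. Its 28th intron had 25 and 21 split reads in DMSO and 138 and 118 at 2 μg/mL, a 4.39-fold rise (log2 fold change 2.13, SE 0.30, adjusted p = 0.000247 by limma). All 7 short introns of POLR2A rose, by 1.64 to 2.13 on the log2 scale, and at 1 μg/mL the values were 0.58 to 1.49 with none past the threshold. The 12th intron of the RNA export receptor gene NXF1 went from 14 and 23 to 111 and 79 split reads (log2 fold change 2.02), and an intron of the mitotic gene DLGAP5 from 20 and 8 to 71 and 68 (2.11). All 26 introns of FLNA, which crosslinks actin filaments, rose, by 0.90 to 1.52.

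Among the largest falls at 2 μg/mL were introns of DDIT4, HNRNPDL and ID3. An intron of DDIT4, a stress-induced inhibitor of mTORC1, went from 213 and 125 to 31 and 46 split reads (log2 fold change -2.40, SE 0.29, adjusted p = 4.38e-05 by limma). The second intron of HNRNPDL, an RNA-binding protein gene, went from 323 and 325 to 62 and 101 (-2.33, SE 0.20), and the first of ID3, an inhibitor of bHLH transcription factors, from 83 and 104 to 21 and 34 (-2.09, SE 0.29). Introns were named here only where the α-amanitin libraries did not overlap the DMSO libraries, so that their separation adds nothing to the test.

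After 10 μg/mL DRB the 6 largest falls included HNRNPDL, HNRNPA1 and HNRNPA3. The 7th intron of the quinone reductase gene CRYZ fell from 112 and 150 to 6 and 19 split reads (log2 fold change -3.57, SE 0.38). HNRNPDL fell by 2.19 and the 5th intron of HNRNPA1, a splicing repressor gene, by 2.08 on the log2 scale, from 1743 and 1501 to 341 and 483 split reads (adjusted p = 4.08e-10 by limma). All 6 short introns of HNRNPA3 fell, by 1.47 to 1.99. The 9th intron of FDXR, a mitochondrial ferredoxin reductase gene, rose from 24 and 37 to 118 and 132 (log2 fold change 1.95, SE 0.27). Further introns with a large rise were in TRMT1, MAP7D1, PLXNB2, TRAF7 and PCNX3.

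At 25 μg/mL DRB the second intron of MAFG, a small Maf transcription factor gene, rose from 16 and 17 to 150 and 219 split reads (log2 fold change 3.79, SE 0.31, adjusted p = 2.44e-12 by limma). The last intron of CCN1, an immediate early gene of a matrix protein, rose from 263 and 213 to 1523 and 1735 (3.14, SE 0.20), and the 4th of the receptor kinase gene EPHA2 from 53 and 63 to 246 and 414 (2.83, SE 0.22). That the DRB libraries did not overlap the DMSO libraries was a condition for naming these 3 introns. The second intron of PCNA fell from 214 and 227 to 8 and 11 (-4.13, SE 0.35), and introns of the chaperone gene HSPA8 from 795 and 1383 to 44 and 87 (-3.68, SE 0.23), of TOP2A from 152 and 171 to 15 and 11 (-3.33, SE 0.33), of CDC20, an activator of the anaphase complex, from 192 and 296 to 15 and 35 (-2.94, SE 0.28) and of HNRNPDL from 323 and 325 to 20 and 47 (-2.96, SE 0.26). The last intron of GNL3, whose unspliced share had risen, fell by 3.02.

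The split reads of introns were then counted by function of the gene. For DRB an intron missing from 1 or more of the 6 libraries was left out at both doses. Introns that fell below the listing minimum at 25 μg/mL are therefore missing from these counts, and how far this moved them was not tested. The counts stand against 2.19% higher and 3.27% lower of all introns tested at 2 μg/mL α-amanitin, against 9.65% and 10.6% for the lower dose of DRB, and against 24.6% and 24.8% for its higher dose. Splicing regulators had many more introns lower than higher. Among 60 introns of SR and hnRNP genes tested after 2 μg/mL α-amanitin, 19 in 9 genes fell and 0 rose (median log2 fold change -0.36). The lower dose of DRB had 27 of 48 down and 2 up (median -0.70), and the higher dose 24 down and 1 up (median -0.49). Those that fell in each of the 3 comparisons were in HNRNPA1, HNRNPA3, HNRNPD, HNRNPDL, HNRNPH1, PTBP1 and RBM39. With total scaling the counts were 0 up and 19 down, 3 up and 22 down, and 0 up and 35 down. The core spliceosome moved less to 1 side: the medians were 0.11, 0.28 and -0.09, and at 25 μg/mL DRB its counts were near those of all introns. Of 77 introns 2 rose and 5 fell after α-amanitin at 2 μg/mL. Of 67 introns fitted for DRB, 16 rose and 5 fell at its lower dose, and 14 rose and 17 fell at its higher dose, where total scaling gave 8 up and 28 down. SNRNP70, of the U1 particle, rose in all 3, and SF3B3, of the U2 particle, fell in all 3. In the list of CLK and SRPK kinases, cyclin L and CDK11, 5 of 15, 7 of 13 and 8 of 13 introns rose. They were introns of CDK11A and CDK11B, near-identical copies whose reads could not be told apart, except 1 each of CCNL1 and CLK3 at 25 μg/mL DRB. With total scaling this list had 6 up and 1 down at that dose.

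Among transcription genes, POLR2A rose after α-amanitin, and SUPT5H after DRB in the trimmed mean scaling. All 7 rises among 18 introns of polymerase subunit genes at 2 μg/mL α-amanitin were in POLR2A. After DRB 13 were tested, of which 1 fell at 10 μg/mL (POLR2G), and 1 rose (POLR2I) and 3 fell (POLR2B, POLR2H) at 25 μg/mL (0 and 6 with total scaling). Of the 66 short introns of elongation and pause release factors, in 21 genes, 36 in 11 genes were tested for DRB. Of these 36, 24 in 6 genes rose and 1 fell at 10 μg/mL (median 0.81). At 25 μg/mL 17 rose and 7 fell, where total scaling gave 8 up and 8 down. In the trimmed mean scaling all 12 introns of SUPT5H, a subunit of the pausing and elongation factor DSIF, rose at both doses of DRB. So did 1 intron of CDK9, a kinase that releases paused polymerase. With total scaling not all of these passed as higher at 25 μg/mL, since only 8 introns of the list did. At 2 μg/mL α-amanitin 3 of 63 rose and 1 fell.

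Most short introns of ribosomal protein genes rose at 25 μg/mL DRB. There 34 of 40 introns, in 26 genes, rose and 1, in RPL5, fell, with a median log2 fold change of 1.06, and total scaling gave 26 up and 3 down. At 10 μg/mL 0 rose and 6 fell (median -0.33), and at 2 μg/mL α-amanitin 1 of 41 rose and 2 fell. Reads of ribosomal protein genes can be shared with processed pseudogenes, although a split read spans an intron that those copies lack. The intron of RPLP0 rose by 1.21 and those of RPS16 and RPS18 by 0.66 and 0.94 on the log2 scale. Glycolytic and related genes rose alongside at that dose, 18 of 27 introns up and 2 down (13 and 3 with total scaling), GAPDH by 0.99 to 1.11 in its 3 introns with the most reads. Of 43 introns of aminoacyl-tRNA synthetase genes 17 fell and 0 rose, although the median was 0.06 (-0.33 with total scaling), MARS1 by 1.30 and 1.64 and TARS1 by 1.67.

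**Figure D5:**
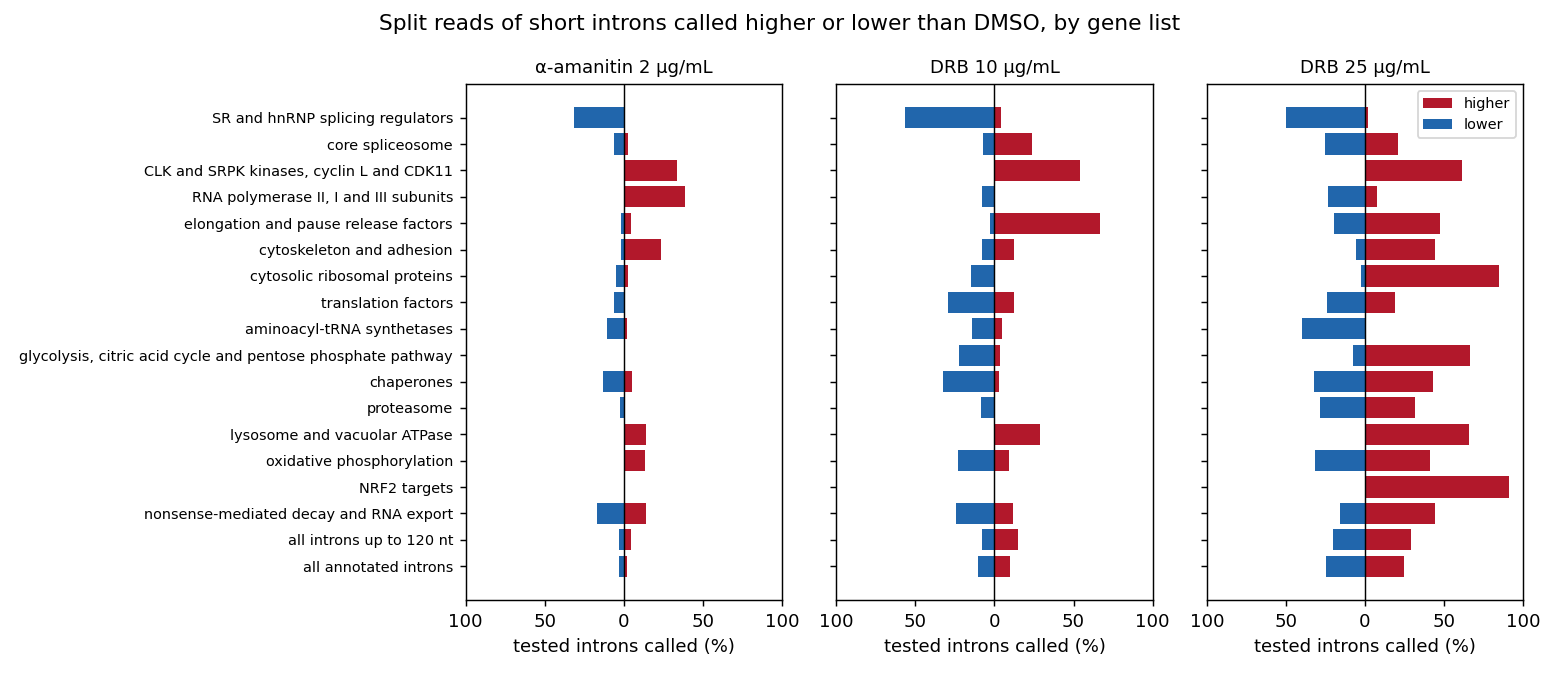
Percent of the short introns tested in each of 16 gene lists, of all short introns and of all annotated introns whose split reads were higher (red, to the right) or lower (blue, to the left) than in DMSO at an adjusted p of 0.05, for 2 μg/mL α-amanitin and both doses of DRB. The bars of ribosomal protein genes at 25 μg/mL DRB stand for 34 higher and 1 lower of 40, and those of SR and hnRNP genes for 19 of 60, 27 of 48 and 24 of 48 lower.

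Genes of the cytoskeleton and adhesion had more introns higher than lower for the higher dose of α-amanitin (35 against 3 of 149) and for the higher dose of DRB. There it was 61 against 8 of 137 (42 against 13 with total scaling). For the lower dose of DRB the counts were near those of all introns, with 17 higher in 3 genes and 11 lower in 8 genes. FLNA held 26 of these rises at 2 μg/mL α-amanitin and again 26 at 25 μg/mL DRB (1.30 to 1.97), and 0 at 10 μg/mL, where 15 of 16 introns of PLEC, a linker of intermediate filaments, rose. The actin gene ACTG1 fell by 1.46 and 1.24 at the 2 doses of DRB, whereas ACTB fell by 0.64 at 10 μg/mL and rose by 0.88 at 25 μg/mL. Lysosome and vacuolar ATPase genes had 5 of 36, 10 of 35 and 23 of 35 introns higher and 0 lower in the 3 comparisons, GRN and LAMP1 among them each time. With total scaling 17 of these introns were higher and 0 lower at 25 μg/mL DRB.

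The remaining lists were small or mixed. Of 11 introns of NRF2 targets, 10 in 4 genes rose at 25 μg/mL DRB, with FTH1, a ferritin subunit gene, up by 1.70, and 0 passed at 10 μg/mL. With total scaling the list had 7 up and 1 down at 25 μg/mL, and 3 up and 0 down at 10 μg/mL. Several lists turned with the scaling at 25 μg/mL DRB. Chaperone genes had 16 introns up and 12 down of 37, but 10 up and 19 down with total scaling, with HSP90AA1 up by 0.92 to 1.07 in its 3 introns with the most reads and HSPA8 down in the trimmed mean scaling. Translation factors had 11 up and 14 down of 58 (6 and 28 with total scaling), with all 5 introns of EEF1A1 down by 0.69 to 0.76, and the proteasome 11 up and 10 down of 35 (4 and 16 with total scaling). Oxidative phosphorylation genes had 9 up and 7 down of 22 (7 and 7), and genes of nonsense-mediated decay and RNA export 11 up and 4 down of 25 (11 and 7). Among the 12 genes with the most short introns, few had all of them past the threshold. All 18 tested introns of SCRIB, a cell polarity gene, rose at both doses of DRB, and all 17 of AGRN, a basement membrane proteoglycan gene, and all 26 of FLNA at 25 μg/mL. In others few or none passed: of 21 introns of LAMA5 1 fell at 10 μg/mL and none passed at 25 μg/mL, 0 of 17 of DYNC1H1, a dynein motor gene, passed at either dose, 12 of 25 of CPSF1 rose at 10 μg/mL and none at 25 μg/mL, and 12 of 19 of FASN, the fatty acid synthase gene, fell at 25 μg/mL.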

How the data were processed

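The authors aligned the reads to GRCh37 (STAR 2.7.3a per the submitters' notes) and deposited 1 list of splice junctions per library with 3 counts each: split reads, and unspliced reads at the donor and at the acceptor site. These deposited counts are raw and have a minimum of 3, and no source used here says whether strand was used for the unspliced reads. A read across both sites of a short intron can be counted at each. Because the share weights split reads by 2, no binomial interval was computed.

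Introns were matched to GENCODE release 44 (lifted to GRCh37) and sequences read from the GRCh37 genome. The members and gene lists were chosen with earlier results of these data known. Introns were named by rule: the 8 shortest, the 8 of highest share, the 6 with the most reads, up to 6 rises and 6 falls per test (3 where none passed), up to 3 per list and 4 without GT-AG ends. A rise or fall past the threshold was named only where the treated libraries did not overlap the DMSO libraries. Per drug, DMSO and both doses (6 libraries) entered 1 fit. Shares were tested with a quasi-binomial model with moderated spread not below 1, on introns with at least 10 reads in each library and at least 10 unspliced and 10 split reads over the fit. Split reads were tested with voom on introns reaching 10 reads in 2 libraries and a sum of 15 (limma 3.58.1, R 4.3.3, with an own implementation of the trimmed mean of M values). Both were tested on simulated data first. With the listing minimum of 3, the share test found 0% to 11.9% of log2 changes of 2 at 2 μg/mL α-amanitin. At 25 μg/mL DRB it found 1.49% to 38.8%. For log2 changes of 5 it found 36.4% to 63.6% and 24.2% to 69.7%. Exact permutation tests ran over libraries (Python 3.11.15). Replicates differed beyond sampling noise, with chi-squared per degree of freedom of 1.97 to 3.52. Depths were 2899344 to 6498515 split reads. The alternatives included other minimums, scalings and sets of libraries, each side alone, a replicate block and leaving out each library. Results for some genes and for 1 gene list are not reported here.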

Additional observations from a re-analysis of the deposited data

How the results depend on the processing

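The same-gene difference was -0.671 to -0.503 percentage points when one replicate was left out (5 libraries, whose smallest permutation p is 0.0625), and 0 with the median of the introns per gene. In introns with at least 10 unspliced reads over all libraries, the median share differed from DMSO by 0.681 points for α-amanitin and -1.03 for DRB, and the pooled share for DRB by 0.0636 points (an alternative chosen after seeing the data). For the unspliced share, the 72 calls at 25 μg/mL DRB became 36 with no read minimum, 120 with all 10 libraries in 1 fit, 25 on the donor side, 33 on the acceptor side, 33 in introns with unspliced reads listed in every library (also chosen after seeing the data), and 0 in DMSO and this dose alone, with the replicate block, and without any 1 library (0 to 0). Elsewhere, 1 call appeared at 10 μg/mL DRB in a fit of all 10 libraries, and 2 there and 1 at 2 μg/mL α-amanitin in introns with unspliced reads listed in every library. For split reads at 1 μg/mL α-amanitin, DMSO and this dose alone gave 6 calls, the replicate block 94 and leaving out a library 0 to 2. At 2 μg/mL, counting introns not listed as 0 gave 45, the replicate block 1006 and leaving out a library 115 to 494. At 10 μg/mL DRB, introns not listed as 0 gave 321, and leaving out a library 369 to 496. The replicate block gave 970 and 1794 at 10 and 25 μg/mL DRB. The differences between replicates 1 and 2 correlated with those of DMSO over 2016 introns at 0.227 to 0.389, but nothing states that a number marks a shared culture, and the samples were not treated as paired. The same-gene difference and the introns named as past the threshold kept their sign in every alternative that gave them a value, except the difference of 0 above, but the balance of higher and lower counts turned: for split reads with total scaling at 25 μg/mL DRB (598 higher, 1118 lower) and with introns not listed as 0 at 3 doses, and for the share at 25 μg/mL DRB from 32 higher and 40 lower to 20 and 13 on the acceptor side and 21 and 15 with no read minimum. The causes of these changes were not tested.

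The depth limits the shares of single introns, since 1 or 2 unspliced reads at a site are not listed.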
